A study of Mus musculus with 18 samples.

Results

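The 10 genes described here act in the resynthesis of triglycerides and in glyceroneogenesis, and were taken by gene symbol from the deposited count table: Pck1, Gpd1, Aqp7, Gpam, Agpat2, Agpat3, Lpin1, Lpin2, Dgat1 and Dgat2. All 10 were found among the 20295 genes of the table, and all 10 were among the 12156 genes that passed the filter on low counts. The RNA came from brown adipocytes on day 7 of differentiation, all of 1 wild-type mouse line, BAT-LgT, in which SV40 large T antigen keeps the preadipocytes dividing. Lipases were either left active or blocked for 1 h with Atglistatin, which inhibits ATGL, together with CAY10499, which inhibits HSL. A stimulus followed for 3 h: the solvent DMSO (Vehicle), 100 nM of isoproterenol (ISO), a β-adrenergic agonist, or SR-3420, which binds the ATGL co-activator ABHD5. The labels put SR-3420 at 10 µM and the study's text gives another dose, and the sources do not settle which of the 2 these samples received. This gave 6 groups with 3 samples each, of which those with active lipases are called Vehicle, ISO and SR-3420, and the same names after "Lipase Inh. +" stand for those with inhibitors.

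In an adipocyte, lipolysis splits stored triglyceride into fatty acids and glycerol, and a large part of the fatty acids is esterified again in the same cell. Re-esterification needs glycerol 3-phosphate, which adipocytes make from glucose or, by glyceroneogenesis, from lactate, pyruvate and amino acids through phosphoenolpyruvate. Acyl chains are then added step by step: glycerol 3-phosphate is acylated to lysophosphatidic acid and on to phosphatidic acid, a lipin removes the phosphate to leave diacylglycerol, and a diacylglycerol acyltransferase adds the last chain. In brown adipose tissue this cycle runs alongside the burning of fatty acids. ISO raises cAMP and activates lipolysis through protein kinase A, whereas SR-3420 frees ABHD5 from perilipin and activates ATGL without the receptor, so that the comparison of both, with and without lipase inhibitors, asks which responses follow lipolysis.

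Of the 18 libraries, 17 held between 10310447 and 21205032 counts. Lipase Inh. + SR-3420 replicate 2 stood apart with 4263755 counts, of which 18.3% came from Lars2, a mitochondrial leucyl-tRNA synthetase, against 0.0397% to 0.121% elsewhere, and results for that group are also given without it. All 10 brown adipocyte markers listed for the check of the label passed the filter, with Ucp1 between 1.39 and 789 CPM (counts per 1000000 counts of the library). Of the 4 macrophage markers, the leukocyte marker Ptprc was at 0 in every library and only Cd68 passed the filter, at 1.96 to 5.88 CPM. The 3 endothelial markers summed to at most 0.524 CPM and the 5 muscle markers to between 8.52 and 12.9 CPM. Libraries were scaled with TMM factors before CPM were computed, and the factors lay between 1.09 and 1.12 in Vehicle and between 0.885 and 0.902 in ISO. Without these factors the median log2 fold change of all genes shifted by -0.31 for ISO, by -0.16 for SR-3420 and by -0.23 for ISO with inhibitors, so that all changes below are relative to the bulk of the genes.

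In build mm9, with starts counted from 1, Pck1 spans chr2:172978574-172984754 and Gpd1 chr15:99548024-99555438, both on the plus strand. Aqp7 spans chr4:40980107-40995169, Gpam chr19:55144224-55173937, Agpat2 chr2:26448577-26459937 and Agpat3 chr10:77734308-77814445, all on the minus strand. Lpin1 spans chr12:16542475-16596576 on the minus strand and Lpin2 chr17:71533318-71599158 on the plus strand, while Dgat1 at chr15:76332445-76342248 and Dgat2 at chr7:106302173-106331223 are on the minus strand. The span of no other gene in the count table overlapped any of them (0 overlaps), so that reads of a neighbour on the opposite strand, which matter where strand use is not stated, had no listed source. These spans hold exons and introns, and counts per gene were given over counted lengths from 1574 bases (Agpat2) to 5641 bases (Lpin2).

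Promoters were read for the members whose regulation is followed below. The RefSeq promoter table (build GRCm38.p6, 250 bases before to 50 after each start) held 11 promoters of 7 of the genes, and Gpd1, Dgat1 and Dgat2 had no entry. The 250 bases before the start are shown for Pck1, the gene with the widest range of levels, and for Gpam and Agpat2, acyltransferase genes whose ISO responses shifted in opposite directions with the inhibitors. All were found once in the mm9 genome. They are written 5′ to 3′ on the strand of the gene, and capitals mark matches to motifs searched on both strands. The core of the cAMP response element was read as TGACG. The nuclear receptor core was read as AGGTCA. A direct repeat of that core with 1 base between its copies was allowed up to 2 mismatches and can contain the core itself. The E-box was read as CACGTG.
Pck1, chr2:172978324-172978573, plus strand: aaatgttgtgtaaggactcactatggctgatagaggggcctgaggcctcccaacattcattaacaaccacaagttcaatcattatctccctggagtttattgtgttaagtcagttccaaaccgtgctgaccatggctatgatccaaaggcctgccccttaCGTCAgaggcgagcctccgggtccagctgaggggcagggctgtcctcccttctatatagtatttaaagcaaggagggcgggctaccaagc
Gpam, chr19:55173968-55174217, minus strand: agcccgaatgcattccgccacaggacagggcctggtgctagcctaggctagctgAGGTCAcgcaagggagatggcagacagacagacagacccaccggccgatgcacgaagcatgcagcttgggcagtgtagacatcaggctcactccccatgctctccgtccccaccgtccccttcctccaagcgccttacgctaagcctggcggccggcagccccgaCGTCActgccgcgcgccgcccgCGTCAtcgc
Agpat2, chr2:26459938-26460187, minus strand: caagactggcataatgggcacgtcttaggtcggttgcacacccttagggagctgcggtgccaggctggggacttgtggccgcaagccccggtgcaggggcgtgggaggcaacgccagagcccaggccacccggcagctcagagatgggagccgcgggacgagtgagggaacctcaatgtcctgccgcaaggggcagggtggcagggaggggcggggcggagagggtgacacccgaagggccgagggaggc

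The Pck1 window held a cAMP response element core at positions -90 to -86 relative to the start. The Gpam window held the same core at positions -31 to -27 and again at -9 to -5, and a nuclear receptor core at -196 to -191. Another Gpam entry lies 27791 bases upstream of the start in the count table and held no match. The Agpat2 window held none of these letters. TGACG was found in 3 of the 11 promoters (of Pck1, Gpam and Lpin2), against 20.8% of the 32851 promoters of the table, and AGGTCA in 4 of the 11 (of Aqp7, Gpam and Lpin1), against 16.3%. The 2 Aqp7 entries overlap and share 1 AGGTCA site, which is thus counted in both. The direct repeat was found in 2 of the 11, both of Aqp7 and overlapping (3.86% of all promoters), the E-box in 1, of Lpin2 (7.15%), and the full palindromic cAMP response element in 0 (1.79%). A match only says that the letters are there, and the RefSeq entry for Lpin1 starts 21196 bases upstream of the start in the count table.

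Levels can be compared between genes only per length, and were expressed as CPM per kilobase (kb) of counted length. In Vehicle, Gpd1 was highest at 1094 ± 100.1 CPM per kb (SD, n = 3) and Lpin2 lowest at 9.18 ± 0.258. Between them came Dgat2 (219 ± 15.4), Agpat3 (188 ± 9.22), Agpat2 (171 ± 9.71), Gpam (124 ± 9.05), Dgat1 (118 ± 27.1), Lpin1 (83.4 ± 3.21), Aqp7 (59.3 ± 13.7) and Pck1 (47.0 ± 5.93). Agpat3 and Agpat2, Gpam and Dgat1, and Aqp7 and Pck1 were neighbours in this order that differed by no more than the sum of their SDs. In ISO, Pck1 had moved from the ninth to the second place at 852 ± 139.8 CPM per kb, followed by Dgat1 at 391 ± 65 and Agpat2 at 353 ± 21.3, whereas in Lipase Inh. + ISO the second place was taken by Dgat1 at 487 ± 36.3 and Pck1 stood at 132 ± 32.8. The study kept 1 read per position and read length, which limits the counts that a short gene with many reads can reach, and its part in these levels was not tested.

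**Figure D1:**
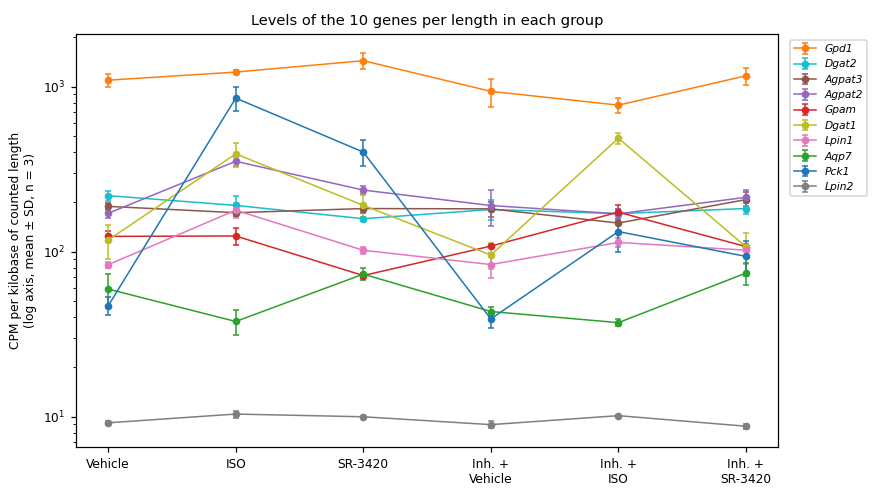
Level of each of the 10 genes in CPM per kilobase of counted length (log axis) in the 6 groups, as mean ± SD of 3 samples; lines only join the points of a gene. Gpd1 stays highest and Lpin2 lowest in every group, while Pck1 rises from 47.0 in Vehicle to 852 in ISO and Dgat1 reaches 487 in Lipase Inh. + ISO.

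Stimulation with ISO for 3 h raised 5 of the 10 genes against Vehicle at an adjusted p of at most 0.05 and lowered 1, while 4 did not pass. Of all genes tested, 26.8% were higher and 25.0% lower, so the share of 5 in 10 was above that background and the share of 1 in 10 below it. The 10 genes were chosen with earlier results of these data known, so such shares describe the list and do not test it. Past a 2-fold change, 4 of the 10 were higher, against 5.03% of all genes. These were Pck1, Dgat1, Lpin1 and Agpat2, which lie at 4 different steps of the path. SR-3420 raised 5 of the 10 and lowered 2 (26.0% and 25.4% of all genes), and only Pck1 passed 2-fold (3.97% of all genes higher 2-fold). The median log2 fold change of the 10 genes was 0.17 with ISO and 0.29 with SR-3420, against -0.02 and -0.02 over all genes tested. Both comparisons share the Vehicle samples. Adjusted p-values are from edgeR's quasi-likelihood test with Benjamini-Hochberg adjustment over all 12156 genes.

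The inhibitors alone changed 0 of the 10 genes (0.485% of all genes higher and 0.428% lower by edgeR). An unadjusted p under 0.05 was found for 3 of them, Aqp7, Dgat2 and Gpam, all lower, and DESeq2 also called 0. Aqp7 was called without Vehicle replicate 3 (-0.64, adjusted p = 0.00635). Aqp7 and Pck1 were called with the replicate number as a block in the fit (adjusted p = 0.003 and 0.0426), though no label says what that number marks. With inhibitors, ISO raised 5 genes and lowered 1 (29.4% and 28.3% of all genes), with 2 genes, Dgat1 and Pck1, higher 2-fold (5.43%). With inhibitors, SR-3420 raised 2 genes and lowered 0 (2.99% and 1.36%), and Pck1 alone passed 2-fold (0.214%). The response to ISO with inhibitors differed from that without in 5 genes, being smaller or more negative in 3 (16.6% of all genes) and larger in 2 (14.9%), and the difference was past 2-fold and negative for Pck1 and Agpat2 (4.71%). For SR-3420 it was lower in 1 gene (14.8%) and higher in 2 (12.5%), with Pck1 alone past 2-fold (2.42%). Between the stimuli, 6 genes were higher with ISO than with SR-3420 (15.8%) and 1 was lower (13.9%), with Pck1 and Dgat1 higher 2-fold (1.23%).

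**Figure D2:**
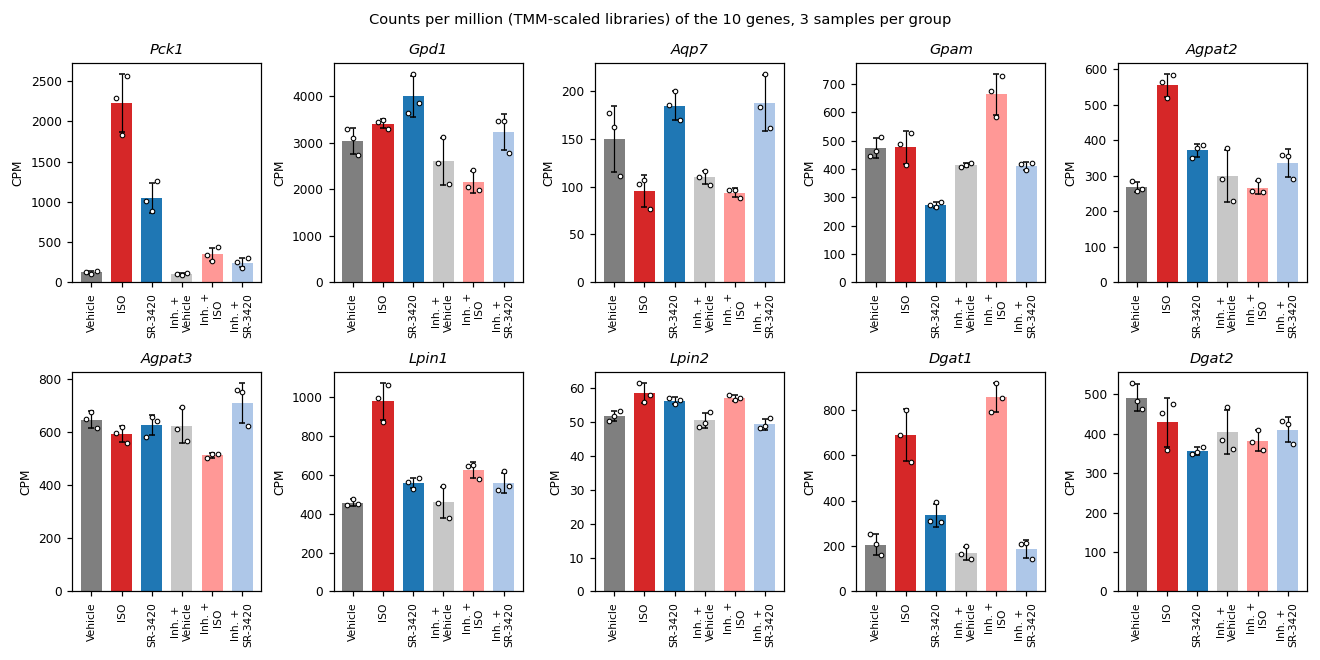
CPM of TMM-scaled libraries for each of the 10 genes (1 panel per gene, each with its own axis from 0) in the 6 groups, where Inh. stands for the lipase inhibitors, bars are means, error bars SD and points the 3 samples. Pck1, Agpat2 and Lpin1 are highest in ISO, Gpam and Dgat1 in Lipase Inh. + ISO, and Gpam is lowest in SR-3420, with all 3 samples between 264 and 285.

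Genes that supply glycerol 3-phosphate came first in the path. Pck1 encodes cytosolic phosphoenolpyruvate carboxykinase, the enzyme that commits carbon to glyceroneogenesis. In Vehicle it stood at 123, 107 and 138 CPM in replicates 1 to 3, in ISO at 2288, 1836 and 2560 CPM, and in SR-3420 at 1009, 884 and 1255 CPM. With inhibitors it stood at 105, 89.2 and 113 CPM under Vehicle, at 334, 267 and 437 CPM under ISO, and at 255, 183 and 298 CPM under SR-3420. Every ISO sample was above every SR-3420 sample, both stimulated groups were above all others, and the 2 stimulated groups with inhibitors overlapped each other but neither Vehicle group.

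Pck1 rose 18.1-fold with ISO (log2 fold change 4.18 ± 0.19, SE, adjusted p = 1.43e-13) and 8.55-fold with SR-3420 (3.10 ± 0.19, adjusted p = 1.54e-11). ISO exceeded SR-3420 by 1.09 ± 0.17 on the log2 scale (adjusted p = 5.48e-05). With inhibitors the rise was 3.38-fold for ISO (1.76 ± 0.18, adjusted p = 2.60e-08) and 2.42-fold for SR-3420 (1.27 ± 0.18, adjusted p = 0.00012). The difference between the responses with and without inhibitors was -2.42 ± 0.25 for ISO (adjusted p = 1.34e-07) and -1.82 ± 0.25 for SR-3420 (adjusted p = 1.29e-05). Hence a rise past the threshold remained under both stimuli when the lipases were inhibited. Without the shallow Lipase Inh. + SR-3420 library, the rise of Pck1 with inhibitors was 1.43 (adjusted p = 4.73e-05) and the difference -1.66 (adjusted p = 3.83e-05).

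Gpd1 encodes the cytosolic dehydrogenase that reduces dihydroxyacetone phosphate to glycerol 3-phosphate. It was the most abundant of the 10 genes, at 3295, 3099 and 2745 CPM in Vehicle, 3440, 3495 and 3296 CPM in ISO, and 3650, 4490 and 3853 CPM in SR-3420. The SR-3420 samples were all above the Vehicle samples, and the lowest ISO sample was level with the highest Vehicle sample. Gpd1 rose 1.31-fold with SR-3420 (0.39 ± 0.12, adjusted p = 0.0096), a call that was lost without SR-3420 replicate 2 (adjusted p = 0.0646), without Vehicle replicate 3 (adjusted p = 0.0521) and on total counts (adjusted p = 0.122). Under ISO the log2 fold change of Gpd1 came to 0.16 ± 0.12 (adjusted p = 0.267) without and to -0.28 ± 0.12 (adjusted p = 0.0533) with inhibitors. In Lipase Inh. + ISO it stood at 2059, 2417 and 1976 CPM, below all Vehicle samples. The matching Lipase Inh. + Vehicle samples stood at 2569, 3131 and 2120 CPM and overlapped those of Lipase Inh. + ISO. The difference between the ISO responses was -0.44 ± 0.17 (adjusted p = 0.0531), just short of the threshold. It passed with DESeq2 (adjusted p = 0.0358), no filter on low counts (0.0151), Lars2 removed (0.0471) and only the groups compared (0.0461). The fall of Gpd1 with ISO under inhibitors passed in the same fits (adjusted p = 0.0456, 0.0189, 0.048 and 0.0478) and on total counts (0.00129). Neither passed with RLE factors or a filter at 1 CPM in 3 samples, nor did the difference on total counts. Without Lipase Inh. + Vehicle replicate 3 the log2 fold change with ISO under inhibitors (-0.41, adjusted p = 0.00661) and the difference (-0.57, adjusted p = 0.0105) both passed, as they did without Lipase Inh. + ISO replicate 2 (adjusted p = 0.0244 and 0.0295), and the difference also passed without Vehicle replicate 1 (adjusted p = 0.0474). With SR-3420 under inhibitors the log2 fold change of Gpd1 was 0.31 ± 0.12 (adjusted p = 0.18) and passed without Lipase Inh. + Vehicle replicate 2 (0.47, adjusted p = 0.0338). With the replicate number as a block, Gpd1 passed under inhibitors for ISO (adjusted p = 0.00611) and SR-3420 (adjusted p = 0.0142). The difference between its ISO responses then also passed (adjusted p = 0.00411).

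Aqp7 encodes the aquaglyceroporin through which adipocytes pass glycerol, and it was the 1 member that fell with ISO. Its level was 176, 162 and 111 CPM in Vehicle, 103, 107 and 76.4 CPM in ISO, and 185, 199 and 169 CPM in SR-3420. All ISO samples were below all Vehicle samples. Aqp7 fell by 0.65 ± 0.14 on the log2 scale with ISO (1.57-fold lower, adjusted p = 0.00047). Fewer cells that express a gene and less RNA of it per cell cannot be told apart in such bulk samples. Summed CPM of the 10 brown adipocyte markers lay between 16840 and 17767 in ISO and between 12540 and 13842 in Vehicle. They include Ucp1 (1.39 to 789 CPM over all libraries) and Ppargc1a (68.1 to 1167 CPM), so their sum does not measure the share of adipocytes, which was not tested.

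With SR-3420, the log2 fold change of Aqp7 was 0.30 ± 0.14 (adjusted p = 0.0732) without inhibitors and 0.76 ± 0.14 (adjusted p = 0.00178) with them, and the first of these passed without Vehicle replicate 1 (adjusted p = 0.0209) and with no filter on low counts (adjusted p = 0.0207). In the latter comparison the samples stood at 183, 218 and 161 CPM against 110, 116 and 102 CPM in Lipase Inh. + Vehicle, with no overlap. Without the shallow library the rise was 0.65 (adjusted p = 0.0134). Against Lipase Inh. + Vehicle, Aqp7 was therefore, with Pck1, one of the 2 genes raised by SR-3420. Its level under stimulation hardly differed with inhibitors, with means of 184 CPM in SR-3420 and 187 CPM in Lipase Inh. + SR-3420. The means were 95.3 CPM in ISO and 93.8 CPM in Lipase Inh. + ISO. With the inhibitors alone the log2 fold change of Aqp7 was -0.46 ± 0.14 (adjusted p = 0.153), and this lower vehicle level enters both differences that follow. The difference between the SR-3420 responses was 0.46 ± 0.19 (adjusted p = 0.0816), short of the threshold. It passed without Vehicle replicate 3, the Vehicle sample with the least Aqp7 (0.64, adjusted p = 0.00526), without Lipase Inh. + SR-3420 replicate 3 (0.57, adjusted p = 0.0415), with no filter on low counts (adjusted p = 0.0253) and on total counts (adjusted p = 0.0464). The difference between the ISO responses of Aqp7, 0.43 ± 0.20 (adjusted p = 0.105), also passed without Vehicle replicate 3 (0.61, adjusted p = 0.00679), with no filter (adjusted p = 0.0286) and on total counts (adjusted p = 0.0391). With the replicate number as a block, both differences passed (adjusted p = 0.00637 for ISO and 0.00488 for SR-3420). So did the response to SR-3420 without inhibitors (adjusted p = 0.00217) and that to ISO with them (-0.22, adjusted p = 0.0273). Aqp7 was lower with ISO than with SR-3420 by 0.95 ± 0.14 (adjusted p = 2.61e-05), the opposite of Pck1.

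Gpam encodes the glycerol-3-phosphate acyltransferase of the mitochondrial outer membrane, which adds the first chain. It stood at 445, 464 and 512 CPM in Vehicle, 488, 414 and 527 CPM in ISO, and 273, 264 and 285 CPM in SR-3420. With inhibitors it stood at 406, 415 and 420 CPM under Vehicle, 677, 585 and 730 CPM under ISO, and 417, 395 and 421 CPM under SR-3420. The SR-3420 samples were the lowest and the Lipase Inh. + ISO samples the highest of all 18, and neither overlapped any other group.

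Gpam fell by 0.79 ± 0.08 on the log2 scale with SR-3420 (1.73-fold lower, adjusted p = 1.08e-07), and with inhibitors its log2 fold change with SR-3420 was -0.01 ± 0.08 (adjusted p = 0.982). The difference, 0.78 ± 0.12, passed the test (adjusted p = 4.73e-05, and 9.93e-05 without the shallow library, at 0.81). With ISO the log2 fold change was 0.01 ± 0.08 without inhibitors (95% interval from -0.17 to 0.18, adjusted p = 0.943), though on total counts it was -0.30 and passed (adjusted p = 0.0146). With inhibitors Gpam rose 1.61-fold with ISO (0.68 ± 0.08, adjusted p = 4.13e-07), and the difference was 0.68 ± 0.12 (adjusted p = 0.000135). For both stimuli the response of Gpam with inhibitors thus lay above that without, by 0.68 and 0.78 on the log2 scale. In SR-3420, the summed CPM of the 8 preadipocyte markers, all of which passed the filter, lay between 363 and 375, against 222 to 321 in the other groups, and their part in the fall of Gpam was not tested.

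Agpat2 and Agpat3 encode acyltransferases that make phosphatidic acid from lysophosphatidic acid, and Agpat2 is the isoform whose loss causes lipodystrophy. Agpat2 stood at 286, 257 and 263 CPM in Vehicle, 564, 518 and 583 CPM in ISO, and 350, 378 and 387 CPM in SR-3420. With inhibitors it stood at 292, 377 and 230 CPM under Vehicle, 258, 287 and 255 CPM under ISO, and 359, 357 and 291 CPM under SR-3420. The ISO samples were the highest of all, whereas the Lipase Inh. + ISO samples lay within the range of Lipase Inh. + Vehicle.

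Agpat2 rose 2.07-fold with ISO (1.05 ± 0.12, adjusted p = 2.01e-07) and 1.38-fold with SR-3420 (0.47 ± 0.12, adjusted p = 0.0024). With inhibitors its log2 fold change was -0.17 ± 0.12 with ISO (adjusted p = 0.241, and 0.0114 without Lipase Inh. + Vehicle replicate 3, at -0.33) and 0.16 ± 0.12 with SR-3420 (adjusted p = 0.565). The difference between the ISO responses was -1.21 ± 0.17 (adjusted p = 8.69e-06), larger than the rise itself, whereas that between the SR-3420 responses was -0.30 ± 0.17 and did not pass (adjusted p = 0.19, and 0.0176 without Lipase Inh. + Vehicle replicate 3, at -0.47). Agpat3 stayed between 501 and 758 CPM in all samples. Its only change past the threshold was a fall by 0.29 ± 0.08 with ISO under inhibitors (adjusted p = 0.00469), from 611, 696 and 568 to 501, 518 and 518 CPM. The difference between its SR-3420 responses was 0.23 ± 0.11 (adjusted p = 0.146) and passed without Lipase Inh. + SR-3420 replicate 3 (adjusted p = 0.0345) or Lipase Inh. + Vehicle replicate 2 (adjusted p = 0.0427). Within each sample the ratio of Agpat2 to Agpat3 per kb was 0.909 ± 0.0718 in Vehicle (SD, n = 3), 2.06 ± 0.226 in ISO and 1.14 ± 0.0698 in Lipase Inh. + ISO.

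Lpin1 and Lpin2 encode lipins, phosphatidic acid phosphatases that also act as nuclear co-regulators. Lpin1 stood at 445, 477 and 448 CPM in Vehicle, 996, 872 and 1064 CPM in ISO, and 565, 529 and 583 CPM in SR-3420. With inhibitors it stood at 455, 540 and 379 CPM under Vehicle, 645, 649 and 577 CPM under ISO, and 520, 618 and 541 CPM under SR-3420. ISO samples were the highest of all, and under inhibitors the ISO samples still lay above all samples of both vehicle groups.

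Lpin1 rose 2.14-fold with ISO (1.10 ± 0.10, adjusted p = 7.30e-09) and 1.36-fold with ISO under inhibitors (0.45 ± 0.10, adjusted p = 0.000609), and the difference was -0.65 ± 0.14 (adjusted p = 0.00111). On total counts the rise under inhibitors was 0.22 (adjusted p = 0.0626). With SR-3420 it rose 1.22-fold (0.29 ± 0.10, adjusted p = 0.0186), a call that was lost without SR-3420 replicate 3 (adjusted p = 0.0658), without Vehicle replicate 1 (adjusted p = 0.0565) and on total counts (adjusted p = 0.288). The log2 fold change with SR-3420 under inhibitors was also 0.29 ± 0.10 but did not pass (adjusted p = 0.126, and 0.0152 without Lipase Inh. + Vehicle replicate 2, at 0.42), and the difference was -0.0042 ± 0.14 (95% interval from -0.30 to 0.29). ISO exceeded SR-3420 by 0.81 ± 0.10 (adjusted p = 3.04e-06). Lpin2 was the least variable of the 10, between 48.2 and 61.7 CPM in all samples. It rose 1.13-fold both with ISO (0.18 ± 0.07, adjusted p = 0.0265) and with ISO under inhibitors (0.18 ± 0.06, adjusted p = 0.0221), and on total counts both values changed sign, to -0.13 and -0.046. Each of these calls for Lpin2 was lost in 3 of 6 fits without 1 sample (for ISO, without ISO replicate 1, Vehicle replicate 1 or Vehicle replicate 2, adjusted p up to 0.133, and under inhibitors, without Lipase Inh. + Vehicle replicate 1 or 2 or Lipase Inh. + ISO replicate 1, adjusted p up to 0.0822) and with no filter on low counts (adjusted p = 0.109 and 0.0714), and that for ISO also with only the groups compared (adjusted p = 0.123).

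Dgat1 and Dgat2 encode unrelated enzymes for the last step, with Dgat1 known for esterifying fatty acids released by lipolysis and Dgat2 for newly made ones. Dgat1 stood at 253, 207 and 158 CPM in Vehicle, 690, 799 and 571 CPM in ISO, and 310, 392 and 303 CPM in SR-3420. With inhibitors it stood at 163, 199 and 141 CPM under Vehicle, 791, 919 and 853 CPM under ISO, and 208, 213 and 143 CPM under SR-3420. Both ISO groups were above every other sample, the SR-3420 samples above every Vehicle sample, and Lipase Inh. + SR-3420 overlapped Lipase Inh. + Vehicle.

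Dgat1 rose 3.32-fold with ISO (1.73 ± 0.17, adjusted p = 1.54e-08) and 5.11-fold with ISO under inhibitors (2.35 ± 0.17, adjusted p = 1.23e-10), each against its own vehicle group. With the inhibitors alone its log2 fold change was -0.31 ± 0.16 (adjusted p = 0.509), and this vehicle level is part of the difference between the ISO responses. The difference, 0.62 ± 0.23, passed the threshold narrowly (adjusted p = 0.0443), was lost with DESeq2 (adjusted p = 0.094) and in 8 of 12 fits without 1 sample (lowest value 0.45, adjusted p up to 0.164, without Vehicle replicate 1). The others were those without Vehicle replicate 2, ISO replicates 1 and 3, Lipase Inh. + Vehicle replicates 1 and 3, and Lipase Inh. + ISO replicates 2 and 3. With SR-3420 Dgat1 rose 1.62-fold (0.70 ± 0.16, adjusted p = 0.00126), and with inhibitors the log2 fold change was 0.16 ± 0.17 (adjusted p = 0.713). The difference between the SR-3420 responses, -0.54 ± 0.23, did not pass (adjusted p = 0.0926) but did without Vehicle replicate 1 (-0.72, adjusted p = 0.0305) and with no filter on low counts (-0.55, adjusted p = 0.0134). It also passed with the replicate number as a block (-0.54, adjusted p = 0.00528). ISO exceeded SR-3420 by 1.04 ± 0.16 (adjusted p = 5.64e-05).

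Dgat2 stood at 530, 482 and 463 CPM in Vehicle, 452, 359 and 476 CPM in ISO, and 348, 354 and 367 CPM in SR-3420. With inhibitors it stood between 358 and 469 CPM in all 9 samples. The SR-3420 samples were all below the Vehicle samples, while the ISO samples overlapped them. Dgat2 fell by 0.46 ± 0.10 with SR-3420 (1.38-fold lower, adjusted p = 0.000507), and under inhibitors its log2 fold change with SR-3420 was 0.02 ± 0.10 (adjusted p = 0.958). The difference was 0.48 ± 0.14 (adjusted p = 0.0136, and 0.0307 without the shallow library, at 0.46). Part of it is the log2 fold change of Dgat2 with the inhibitors alone, -0.28 ± 0.10 (adjusted p = 0.243). Dgat2 and Gpam were the 2 genes lowered by SR-3420, and their positive differences follow from falls that did not remain with inhibitors. With ISO the log2 fold change of Dgat2 was -0.20 ± 0.10 (adjusted p = 0.102), and it passed without ISO replicate 3 (adjusted p = 0.0369). ISO exceeded SR-3420 by 0.27 ± 0.10 (adjusted p = 0.0461), a call lost in 5 of 6 fits without 1 sample (adjusted p up to 0.201, without ISO replicate 3) and kept without ISO replicate 2.

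The ratio of Dgat1 to Dgat2 per kb within each sample, which no scaling of libraries can change, was 0.613, 0.551 and 0.439 in Vehicle. It was 1.96, 2.85 and 1.54 in ISO, and 1.14, 1.42 and 1.06 in SR-3420. In Lipase Inh. + ISO it was 2.68, 2.87 and 3.06, whereas in Lipase Inh. + Vehicle it was 0.543, 0.544 and 0.498 and in Lipase Inh. + SR-3420 0.616, 0.643 and 0.490. Dgat1 was thus the more abundant of the pair per length in all samples of SR-3420 without inhibitors and, with or without inhibitors, in all those given ISO, and Dgat2 in all samples of the other 3 groups. With inhibitors the ratio was above 1 under ISO only.

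**Figure D3:**
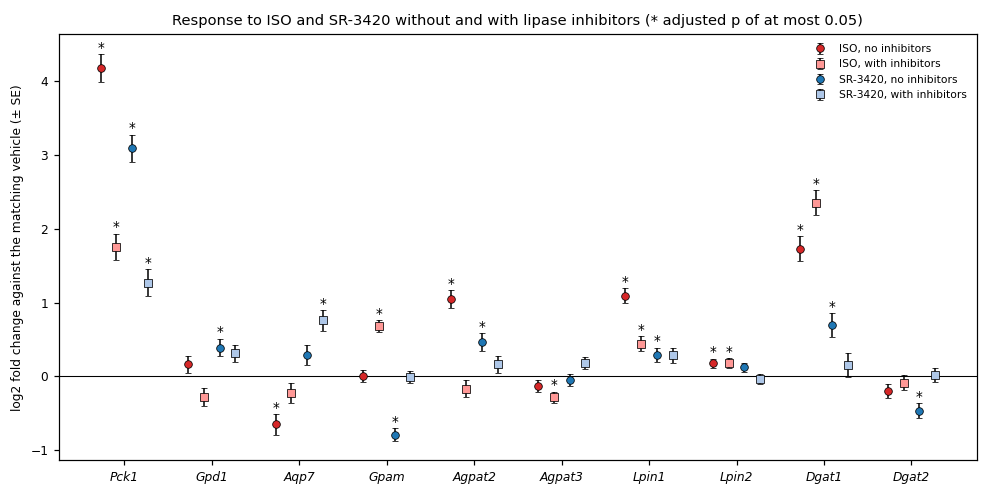
Log2 fold change of each of the 10 genes with ISO (red) and SR-3420 (blue) against the matching vehicle group, without inhibitors (dark circles) and with inhibitors (light squares), error bars SE from edgeR, asterisks for an adjusted p of at most 0.05. Pck1 passes in all 4 comparisons, Dgat1 is highest with ISO under inhibitors (2.35), Agpat2 passes only without inhibitors, and Gpam falls with SR-3420 (-0.79) but rises with ISO under inhibitors (0.68).

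**Figure D4:**
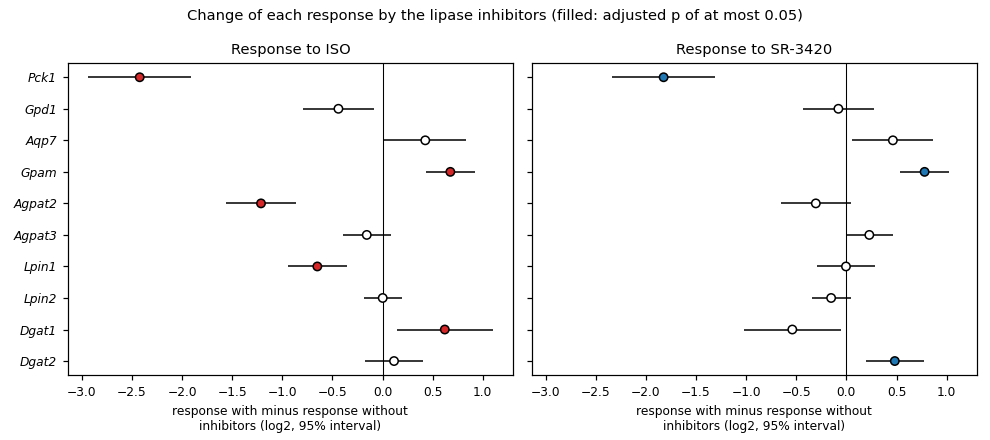
Difference between the log2 response with inhibitors and that without, for ISO (left) and SR-3420 (right), with 95% intervals; points are filled where the adjusted p was at most 0.05. Pck1 lies lowest in both panels (-2.42 and -1.82), Gpam lies above 0 in both (0.68 and 0.78), and Dgat1 is filled for ISO (0.62) but not for SR-3420 (-0.54).

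Other genes of the path were read from a list of 32, also chosen with earlier results of these data known, of which 26 passed the filter. The genes Aqp3, Aqp9, Fitm1, Gpat2, Mogat1 and Mogat2 did not. With ISO 15 of the 26 were higher and 5 lower, beside the 26.8% and 25.0% of all genes, and with SR-3420 8 were higher and 6 lower, beside 26.0% and 25.4%. The inhibitors alone raised 0 and lowered 1, beside 0.485% and 0.428% of all genes. The 1 lowered was the glycolytic enzyme gene Tpi1 (-0.38). Tpi1 rose with ISO by 0.49 ± 0.09 (adjusted p = 6.19e-05) without and by 1.04 ± 0.09 (adjusted p = 1.24e-09) with inhibitors. With inhibitors ISO raised 11 and lowered 5, beside 29.4% and 28.3% of all genes. With inhibitors SR-3420 raised 4 and lowered 0, beside 2.99% and 1.36%. Median log2 fold changes of the 26 were 0.27 with ISO and 0.07 with SR-3420. On total counts ISO raised 6 of them and lowered 8, where 1496 of all 12156 genes were higher and 6004 lower.

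Of these genes, 5 passed a 2-fold change with ISO or SR-3420 against Vehicle or in a difference with inhibitors. Gk, listed under its older symbol Gyk, encodes glycerol kinase, which returns glycerol to glycerol 3-phosphate. It stood at 33.6, 39.2 and 33.9 CPM in Vehicle, at 294, 342 and 267 CPM in ISO and at 97.2, 99.9 and 80.8 CPM in SR-3420, with no overlap between any of the 3 groups. Gk rose by 3.08 ± 0.10 on the log2 scale with ISO (adjusted p = 5.48e-16) and by 1.38 ± 0.10 with SR-3420 (adjusted p = 3.84e-10). With inhibitors it still rose by 2.39 ± 0.10 with ISO (adjusted p = 2.12e-14), and the difference was -0.69 ± 0.14 (adjusted p = 0.000669). Pck1 and Gk, the genes of glycerol 3-phosphate supply that rose more than 2-fold with ISO, both also rose with SR-3420. Both had smaller responses to ISO with inhibitors.

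Gpat3, listed as Agpat9, encodes a glycerol-3-phosphate acyltransferase of the endoplasmic reticulum and does the same step as Gpam. It stood at 171, 167 and 149 CPM in Vehicle, 876, 961 and 802 CPM in ISO, and 538, 555 and 531 CPM in SR-3420. Gpat3 rose by 2.44 ± 0.09 with ISO (adjusted p = 4.60e-15) and by 1.74 ± 0.09 with SR-3420 (adjusted p = 1.63e-12), where Gpam was at 0.01 and -0.79. The differences with inhibitors were -0.95 ± 0.13 for ISO (adjusted p = 4.37e-06) and -0.98 ± 0.13 for SR-3420 (adjusted p = 6.48e-06), opposite in sign to those of Gpam. Per kb and within each sample, the ratio of Gpat3 to Gpam was 0.459 ± 0.0652 in Vehicle, 2.50 ± 0.542 in ISO and 2.63 ± 0.159 in SR-3420. With inhibitors it was 0.461 ± 0.0602 under Vehicle, 0.814 ± 0.144 under ISO and 0.787 ± 0.0958 under SR-3420, so that Gpat3 exceeded Gpam per length in all samples of the 2 stimulated groups without inhibitors and in no other sample.

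Lclat1, an acyltransferase gene of the same family as the Agpat genes, showed the reverse. It stood at 78.7, 87.8 and 105 CPM in Vehicle and 106, 100.3 and 123 CPM in ISO, but at 281, 265 and 282 CPM in Lipase Inh. + ISO, above every other sample. Its rise with ISO was 0.28 ± 0.10 (adjusted p = 0.0242) without and 1.52 ± 0.10 (adjusted p = 2.06e-11) with inhibitors, and the difference was 1.24 ± 0.14 (adjusted p = 4.62e-07). Plpp3, listed as Ppap2b, a lipid phosphate phosphatase gene, rose by 1.10 ± 0.08 with SR-3420 (adjusted p = 2.99e-10), and with inhibitors its log2 fold change was -0.01 ± 0.08 (adjusted p = 0.966). Its rise with ISO was 0.98 ± 0.08 without and 0.92 ± 0.08 with inhibitors. Aqp11, an aquaporin gene of intracellular membranes with a mean of 4.54 ± 1.11 CPM in Vehicle, fell by 1.08 ± 0.24 with SR-3420 (adjusted p = 0.00065).

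**Figure D5:**
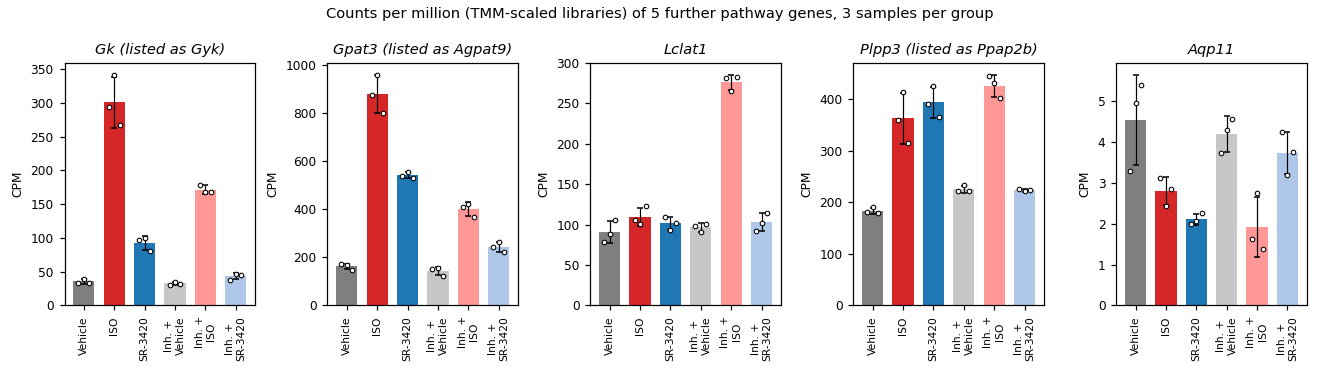
CPM of TMM-scaled libraries for Gk, Gpat3, Lclat1, Plpp3 and Aqp11 in the 6 groups, with bars for means, error bars for SD and points for the 3 samples; each panel has its own axis from 0. Gk and Gpat3 are highest in ISO (means 301 and 879.5), Lclat1 stands out in Lipase Inh. + ISO (mean 276), and the mean of Plpp3 is 393 in SR-3420 and 223 in Lipase Inh. + SR-3420.

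The genes whose pattern over the 18 samples was nearest to that of Pck1, the member with the widest range of group means, were sought among 9353 genes whose average log2 CPM was 3 or more. Likeness was the root mean square difference of centred log2 CPM, with a median of 1.62 over all these genes. The nearest were Slc25a25 (0.38), a mitochondrial carrier gene, Elovl3 (0.40), a fatty acid elongase gene, Nr4a1 (0.42), a nuclear receptor gene, Ccrn4l (0.51), which encodes nocturnin, and Spry4 (0.63), an inhibitor of receptor tyrosine kinase signalling. Elovl3 stood at 4.34 ± 0.853 CPM in Vehicle (SD, n = 3), 55.7 ± 9.22 in ISO, 25.5 ± 1.71 in SR-3420 and 12.3 ± 1.04 in Lipase Inh. + ISO. No other of the 10 genes was among these 5. Each of the 5 was higher in ISO and in SR-3420 than in either Vehicle group by its group means, as was Pck1.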

How the data were processed

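Total RNA of 18 samples was sequenced after TruSeq library preparation. The authors aligned reads with STAR 2.4.2a, made tag directories with HOMER that kept 1 read per position and read length, and obtained gene counts from iRNA-seq with RefSeq models of mouse build mm9, while use of strand is not stated. The deposited table holds raw counts for 20295 genes, with 0 columns of other samples, and the other deposited columns give positions, spans and counted lengths, which were used for coordinates and levels per kb. No molecular identifiers are described.

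Tests used edgeR 4.0.16 in R 4.3.3. The filter was filterByExpr (minimum count 10, minimum total 15), libraries were scaled with TMM factors, and 1 quasi-likelihood model with a mean per group was fitted over all 18 samples (estimateDisp, glmQLFit, glmQLFTest). Benjamini-Hochberg adjustment ran over the 12156 genes kept, and a gene passed at an adjusted p of at most 0.05, with 2-fold calls from a log2 fold change of 1 or more in either direction. Differences between responses are interaction contrasts. Standard errors were taken from the fold change and its F statistic, and ratios between genes were computed within samples. Groups come from the sample titles, and the study describes 3 independent experiments. On simulated counts for ISO against Vehicle with 200 genes changed 3-fold, among 12036 genes tested, the fit recovered 198 and called 1 other. The simulation gave every gene the same dispersion and few genes a change. It therefore does not cover changes below 3-fold or the scaling of libraries between groups.

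The 10 genes and the pathway and marker lists were chosen with earlier results of these data known. Besides the 10, text names pathway genes past 2-fold in ISO, SR-3420 or a difference with inhibitors, and the 5 genes nearest to the member with the widest range. Tpi1 was named after its values were seen. Alternatives were DESeq2 1.42.0, RLE factors, total counts, other filters, only the groups compared, the replicate number as a block, removal of Lars2 and leaving out each sample. Pathway counts under these alternatives were added after seeing the data.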

Additional observations from a re-analysis of the deposited data

Results flagged for a closer look

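The responses to 1 stimulus with and without lipase inhibitors differed for 8 pairs of gene and stimulus by edgeR's interaction test with Benjamini-Hochberg adjustment over all genes. With ISO, the response with inhibitors minus that without was -2.42 for Pck1, -1.21 for Agpat2 and -0.65 for Lpin1, and it was 0.68 for Gpam and 0.62 for Dgat1. With SR-3420 it was -1.82 for Pck1, 0.78 for Gpam and 0.48 for Dgat2. Each value is a log2 difference over 3 samples per group. For Dgat1 the adjusted p was 0.0443, and over the alternatives other than leaving out samples the call was lost only with DESeq2 (adjusted p = 0.094).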

How the results depend on the processing

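Of the 80 member values per alternative, all 80 kept their direction or stayed short of the threshold, and their call, with RLE factors and with a filter at 1 CPM in 3 samples. On total counts ISO lowered 4 members (Gpam at -0.30, adjusted p = 0.0146, and Agpat3 and Dgat2 besides Aqp7), the value of Lpin2 changed sign with ISO (-0.13) and with ISO under inhibitors (-0.046), SR-3420 raised 3, and under inhibitors ISO raised 3 and lowered 5. This follows from the construction, since the median of all genes shifts as given above (and by -0.15 for ISO against SR-3420). The share of higher among all calls then went from 51.7% to 19.9% for ISO, from 50.6% to 30.8% for SR-3420, from 51.0% to 27.8% for ISO under inhibitors, from 68.8% to 33.1% for SR-3420 under inhibitors and from 53.1% to 20.3% for ISO against SR-3420, while for the differences with inhibitors it went from 47.3% to 58.6% (ISO) and from 45.9% to 55.8% (SR-3420). It went from 53.2% to 42.0% for the inhibitors alone. ISO was lower than SR-3420 in 2 members on total counts, with only the groups compared and with the block.

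The inhibitors alone called 111 genes, against 225 with DESeq2, 69 on total counts, 47 with only the groups compared and 56 to 150 on leaving out 1 sample, and lowered 1 member, Aqp7, with no filter on low counts. SR-3420 under inhibitors called 528 genes, against 344 on total counts, 345 with only the groups compared and 297 to 484 without 1 sample, the lowest without Lipase Inh. + Vehicle replicate 1. ISO under inhibitors lowered 2 members with DESeq2, no filter or Lars2 removed, and 3 with only the groups compared, where Gpd1 joined Agpat3, and Aqp7 as the last. DESeq2 left 1 member, Gpam, with a larger ISO response under inhibitors, and with no filter 2 members, Pck1 and Dgat1, had a smaller SR-3420 response. Without 1 sample, counts of members ranged from 1 to 2 (lowered by ISO), 0 to 1 (lowered by inhibitors), 1 to 3 (lowered by ISO under inhibitors), 2 to 4 (raised by SR-3420 under inhibitors, 4 without Lipase Inh. + Vehicle replicate 2), 1 to 3 (larger ISO response), 2 to 4 (larger SR-3420 response) and 1 to 2 (smaller SR-3420 response). The cause was not tested for these.

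Counts of the other pathway genes changed on total counts to 6 higher and 8 lower with ISO, 0 lower with inhibitors, 1 higher with SR-3420 under inhibitors, 4 with a larger ISO response under inhibitors, and 7 higher and 5 lower for ISO against SR-3420. DESeq2 gave 1 higher and 2 lower with inhibitors alone, and only the groups compared gave 0 lower with inhibitors, 2 higher with SR-3420 under inhibitors and 2 lower for ISO against SR-3420. Without 1 sample they ranged from 0 to 2 (lower with inhibitors), 2 to 4 (higher with SR-3420 under inhibitors), 2 to 5 (larger ISO response), 3 to 5 (larger SR-3420 response) and 1 to 2 (lower, ISO against SR-3420). In 49 member values short of the threshold the sign changed, at sizes of at most 0.14.

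The titles share the numbers 1 to 3 across groups, but no label says what a number marks. Deviations from group means correlated at -0.012 on average between samples numbered 1, at 0.15 between those numbered 2 and at 0.19 between those numbered 3, and 14 of 18 samples correlated best with one of their own number, which is a hint from the data only. With the number as a replicate block the inhibitors alone called 269 genes and lowered 2 members (Aqp7 and Pck1), SR-3420 under inhibitors called 852 genes, ISO under inhibitors lowered 3 members, SR-3420 had 2 members with a smaller response under inhibitors, and pathway counts became 1 higher and 2 lower (inhibitors alone), 5 (larger ISO response) and 2 lower (ISO against SR-3420). The block lost no member's call. It gave calls to Aqp7 for SR-3420 (0.31, adjusted p = 0.00217), ISO under inhibitors (-0.22, adjusted p = 0.0273), the inhibitors alone (-0.44, adjusted p = 0.003) and the differences for ISO (0.43, adjusted p = 0.00637) and SR-3420 (0.44, adjusted p = 0.00488), to Dgat1 for the SR-3420 difference (-0.54, adjusted p = 0.00528), to Pck1 for the inhibitors alone (-0.26, adjusted p = 0.0426), and to Gpd1 for ISO (-0.27, adjusted p = 0.00611) and SR-3420 under inhibitors (0.32, adjusted p = 0.0142), the ISO difference (-0.43, adjusted p = 0.00411) and ISO against SR-3420 (-0.23, adjusted p = 0.0328). With 3 samples per group and the shallow Lipase Inh. + SR-3420 replicate 2, p-values measure the spread between these samples of 1 cell line.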
